A study of Mus musculus with 13 samples.

Results

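Lysosome and autophagy genes were examined in brain hemispheres of C3HeB/FeJ mice, an inbred strain. All mice were male. The 6 creatine-fed mice had free access to pellets with 1% creatine for 6 months, and the 7 untreated mice were given pellets of equal calories without creatine. The regimen began at 10 to 12 weeks of age. Creatine is a compound that creatine kinases convert to phosphocreatine, from which they rebuild ATP. The genes were taken by name: 45 genes were listed, and every probe set (a group of short array probes read as 1 value) whose single annotated symbol was among them was used. This gave 44 genes with 106 of the 45037 probe sets tested, out of 18193 genes named on the array. They fall into 23 lysosome genes, 4 of 5 listed subunits of the proton pump and 17 autophagy genes. Atp6v0c, the pump subunit that lines the proton path, had no probe set of its own symbol and was not analysed here. Means and SDs are over the 6 and 7 mice throughout. Each gene is represented by its brightest probe set, the one with the highest mean over the 13 arrays.

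Lysosomes are acidic compartments in which hydrolases break down proteins, lipids, sugars and nucleic acids. The proton pump, or V-ATPase, spends ATP to acidify them. In macroautophagy a membrane sheet grows around cytoplasm or organelles, closes into an autophagosome and fuses with a lysosome. Neurons depend on this route because they do not divide, and inherited loss of single lysosomal proteins causes storage diseases of the brain. The transcription factor Tfeb activates many genes of both compartments and is held in the cytosol by the kinase mTOR when nutrients are ample.

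Median intensities per array lay between 37 and 43 in creatine-fed mice and between 41 and 45 in untreated mice. The 10 neuron markers examined summed to between 31120 and 35222 in creatine-fed mice and between 32229 and 35471 in untreated mice, so markers of the labelled tissue were bright on every array. The mean log2 ratio of 3′ to 5′ control probe sets, a sign of RNA integrity, ran from 0.093 to 0.22 in creatine-fed mice and from 0.13 to 0.24 in untreated mice. Each array is labelled a biological replicate, and each was taken as 1 mouse. A lower signal in a whole hemisphere can come from fewer cells of a type or from less RNA per cell, and these cannot be told apart.

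None of the 44 genes passed the test between creatine-fed and untreated mice. The test was limma on log2(intensity + 16), 2-sided, with Benjamini-Hochberg adjustment over all 45037 probe sets and a threshold of 0.05, which called 4 probe sets or 0.00888% in all. The smallest adjusted p among the 44 was 0.244, for Grn. At an unadjusted p under 0.05, limma gave 4 genes, 3 higher in creatine-fed mice (Grn, Cln6 and Atg9a) and 1 lower (Cln8). The adjusted threshold called 1 gene, or 0.0055%, among the brightest probe sets of the 18193 named genes. The 4 are 9.09% of the 44, and among the brightest probe sets of all named genes the share was 11.2%, with 3.58% higher and 7.62% lower. The ranges of the groups overlapped in each of the 44 genes, while 0.649% of all named genes had groups that did not overlap. An exact permutation test over the 1716 splits of the mice gave 8 genes at p under 0.05, or 18.2%, where 12.6% of all named genes had such a p. These were Psap, Mcoln1, Gabarapl2 and Sqstm1 on the lower side and Grn, Cln6, Atp6v0d1 and Atg9a on the higher side.

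The 95% interval of the log2 difference, not adjusted for the number of genes, lay inside a 1.5-fold change in either direction for 43 of 44 genes. The exception was Cln8, whose interval ran from -0.64 to -0.031. The median width on each side of the estimate was 0.15 on the log2 scale. Some dimmer probe sets of these genes had wider intervals, reaching 0.91 at 1435219_x_at of Becn1 and -0.79 at 1428611_at of Atg7.

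**Figure D1:**
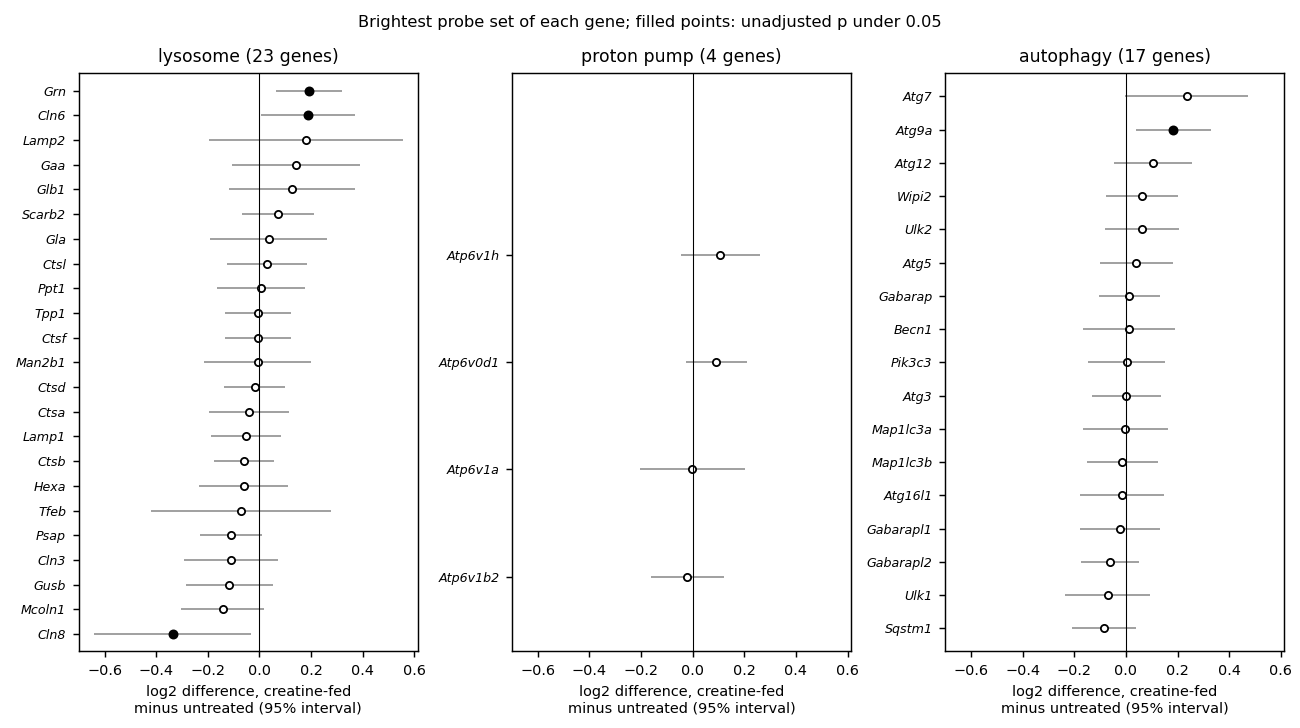
Log2 difference between creatine-fed and untreated mice (x axis, creatine-fed minus untreated) with its 95% interval for each gene, in panels for lysosome, proton pump and autophagy genes. Filled points had an unadjusted p under 0.05; most intervals cross 0, Grn, Cln6 and Atg9a lie to the right of it and Cln8 to the left.

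Lysosome genes as a group were centred near 0. Of 23, 9 had a higher mean and 14 a lower mean in creatine-fed mice, where 41.5% of all named genes had a higher mean, with a median log2 difference of -0.0066, beside -0.027 over all named genes. After each array was centred on its median, 14 of 23, or 60.9%, were higher and 9 lower, where 57.5% of all named genes were higher, and the medians were 0.045 for the list and 0.025 for all named genes. At an unadjusted p under 0.05 there were 3 of 23, or 13.04%, beside 11.2% of all named genes.

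Tfeb, the activator of lysosome and autophagy genes, was dim and variable at its 1 probe set, 1422566_at. Its lowest, median and highest intensities were 45, 63 and 93 in creatine-fed mice and 57, 62 and 112 in untreated mice. The ranges overlapped, and the highest value of all mice belonged to untreated replicate 2. The log2 difference was -0.072 ± 0.16 (SE, adjusted p = 0.909).

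Tfeb binds an E-box with flanking bases, and those letters were looked up in RefSeq promoter windows of build GRCm38.p6, which reach from 250 bases before to 50 bases after a gene's start. The core CACGTG, which reads the same on both strands, was in the windows of 15 of the 35 members that had one, or 42.9%, beside 10.2% of 14452 named genes and 7.15% of all 32851 windows. The longer TCACGTG, searched on both strands and always containing the core, was in 12 of 35, or 34.3%, beside 5.8% of named genes and 3.77% of all windows. A match describes these letters only. The stretches upstream of the start are shown for the 6 members with more than 1 copy there. They show how densely the letters can lie beside these genes. The stretch of the pump subunit Atp6v1a, with 1 copy, is also given. Capitals mark CACGTG, and each stretch is written 5′ to 3′ along the gene's strand.
Lamp1, chr8:13159080-13159160, plus strand: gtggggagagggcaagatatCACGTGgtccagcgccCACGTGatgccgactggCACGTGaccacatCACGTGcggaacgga
Mcoln1, chr8:3500428-3500499, plus strand: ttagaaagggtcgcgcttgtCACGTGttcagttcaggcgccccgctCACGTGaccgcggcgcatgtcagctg
Gla, chrX:134601174-134601252, minus strand: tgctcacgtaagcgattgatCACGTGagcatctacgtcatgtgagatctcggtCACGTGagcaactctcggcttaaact
Cln3, chr7:126583332-126583405, minus strand: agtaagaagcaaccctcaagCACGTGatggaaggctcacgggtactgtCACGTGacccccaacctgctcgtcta
Ctsd, chr7:142387900-142388077, minus strand: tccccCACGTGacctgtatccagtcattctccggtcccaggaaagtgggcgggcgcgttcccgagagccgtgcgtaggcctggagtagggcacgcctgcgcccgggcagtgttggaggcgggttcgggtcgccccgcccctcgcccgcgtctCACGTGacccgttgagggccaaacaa
Atg3, chr16:45158715-45158783, plus strand: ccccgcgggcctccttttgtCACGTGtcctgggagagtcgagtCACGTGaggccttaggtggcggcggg
Atp6v1a, chr16:44139365-44139410, minus strand: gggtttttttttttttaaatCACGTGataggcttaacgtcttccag

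The differences of members with and without these letters were both centred near 0. The 12 with TCACGTG had a median log2 difference of -0.00011 and the 23 without it -0.0059, beside -0.014 and -0.027 over named genes with and without it. Of the 12, none had an unadjusted limma p under 0.05, where 10.4% of named genes with the letters did. Of the 23 without them 3 did, where the share among named genes was 11.3%, and whether the 2 counts differ was not tested. By exact permutation, Mcoln1 and Atp6v0d1 of the 12 had a p under 0.05 (0.0484 and 0.0163). Of the 23, Psap, Cln6, Grn, Atg9a, Gabarapl2 and Sqstm1 did, where 12.6% of all named genes had such a p. Lamp1, with 4 copies of the core, differed by -0.053, and Atg3, with 2, by 0.0016.

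**Figure D2:**
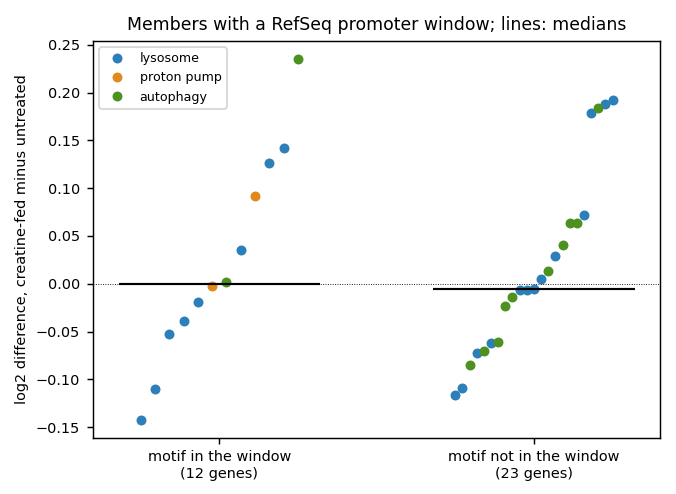
Log2 difference between creatine-fed and untreated mice (y axis) for members with and without the longer E-box in their promoter window. Points are genes coloured by role and lines are medians, which lie close to 0 on both sides, at -0.00011 for 12 genes and -0.0059 for 23 genes.

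Grn encodes progranulin, a secreted protein that reaches lysosomes and whose loss causes storage disease and neurodegeneration. At its brightest probe set, 1438629_x_at, the lowest, median and highest intensities were 483, 532.5 and 580.0 in creatine-fed mice and 447, 455 and 494 in untreated mice. Of the 6 creatine-fed mice, 5 lay above every untreated mouse, and the remaining one, replicate 6, lay within their range. The log2 difference was 0.19 ± 0.059 (SE, adjusted p = 0.244). A further probe set, 1456567_x_at, averaged 356 ± 28.3 in creatine-fed mice against 283 ± 29.7 in untreated mice (SD), a log2 difference of 0.32 with an adjusted p of 0.183. The third, 1448148_at, averaged 230.2 ± 25.3 in creatine-fed mice against 231 ± 24.5 in untreated mice (SD), a log2 difference of -0.0043. The 2 probe sets with higher means carry a suffix for probes shared with other transcripts.

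Cln6 and Cln8 are membrane proteins of the endoplasmic reticulum that help lysosomal enzymes leave it, and loss of either causes neuronal ceroid lipofuscinosis, a childhood storage disease. Cln6, at 1454837_at, had a lowest, median and highest intensity of 84, 93 and 129 in creatine-fed mice and of 74, 84 and 91 in untreated mice. Of the creatine-fed mice, 3 lay above every untreated mouse and 3 among them, with replicate 6 the highest. Its log2 difference was 0.19 ± 0.086 (SE, adjusted p = 0.406). Cln8, at 1459992_x_at, had 82, 98 and 150.0 in creatine-fed mice and 110.0, 149 and 184 in untreated mice. Of the creatine-fed mice, 4 lay below every untreated mouse and 2 sat among them, and the log2 difference was -0.34 ± 0.14 (SE, adjusted p = 0.375). The 3 other probe sets of Cln8 differed by -0.024, 0.038 and 0.034, and the suffix of the brightest one again marks probes that can match other transcripts.

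Mcoln1, the calcium channel of the lysosomal membrane, read lower at 2 of its 3 probe sets. At the brightest, 1416672_s_at, the lowest, median and highest were 313, 334 and 349 in creatine-fed mice and 308, 382 and 430.0 in untreated mice. Every creatine-fed mouse lay within the untreated range and under its mean, and the log2 difference was -0.14 ± 0.075 (SE, adjusted p = 0.485). At 1431305_at, a dimmer probe set, it averaged 73.7 ± 6.62 in creatine-fed mice against 93.9 ± 9.82 in untreated mice (SD), a log2 difference of -0.29 with an adjusted p of 0.191. At 1416671_a_at the difference was 0.080, and the suffix of the brightest probe set marks probes that can match other transcripts.

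Psap, the precursor of the saposins that help enzymes reach sphingolipids, read lower at both of its probe sets. At 1415687_a_at the lowest, median and highest were 4690.0, 4772 and 5206 in creatine-fed mice and 4990.0, 5240.0 and 5487 in untreated mice. Of the creatine-fed mice, 4 lay below every untreated mouse and 2 within their range. The log2 difference was -0.11 ± 0.056 (SE, adjusted p = 0.472) as deposited and -0.057 both after quantile normalization and after centring on array medians. The exact permutation p was 0.0117. At 1421813_a_at the difference was -0.17, with an adjusted p of 0.335.

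None of the cathepsins, proteases of the lysosome, had an unadjusted p under 0.05. Ctsb, a cysteine protease, had a lowest, median and highest intensity of 2756, 3018 and 3123 in creatine-fed mice and of 2992, 3103 and 3213 in untreated mice at 1417490_at. Of the creatine-fed mice, 3 lay below every untreated mouse, and the log2 difference was -0.060 ± 0.055 (SE, adjusted p = 0.714). At its second probe set, 1448732_at, it averaged 1941 ± 91.6 in creatine-fed mice against 2109 ± 115 in untreated mice (SD), a difference of -0.12 with an adjusted p of 0.465, and 4 of 6 creatine-fed mice lay below every untreated mouse. Its other 3 probe sets differed by 0.041, 0.034 and 0.051. Ctsd, the main aspartic protease, averaged 918 ± 43.0 in creatine-fed mice against 930 ± 31.0 in untreated mice (SD), a log2 difference of -0.019. Ctsl, another cysteine protease, averaged 1382 ± 129 in creatine-fed mice against 1351 ± 84.8 in untreated mice (SD), a difference of 0.029. Ctsf averaged 283 ± 16.7 in creatine-fed mice against 284 ± 12.97 in untreated mice (SD), a difference of -0.0061. Ctsa, a carboxypeptidase that also shields β-galactosidase, averaged 439 ± 26.5 in creatine-fed mice against 452 ± 41.8 in untreated mice (SD), a difference of -0.039.

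Enzymes that cut sugars from glycogen, glycolipids and glycoproteins ran both ways, and none had an unadjusted p under 0.05. Gaa, which breaks down glycogen, averaged 850.3 ± 147 in creatine-fed mice and 766 ± 107 in untreated mice (SD), a log2 difference of 0.14. Glb1, the β-galactosidase of ganglioside breakdown, averaged 169 ± 27.0 in creatine-fed mice against 153 ± 22.6 in untreated mice (SD), a difference of 0.13. Hexa, a subunit of β-hexosaminidase, averaged 399 ± 40.6 in creatine-fed mice against 417 ± 34.2 in untreated mice (SD), a difference of -0.062. Gusb, β-glucuronidase, averaged 61.8 ± 6.91 in creatine-fed mice against 68.4 ± 7.87 in untreated mice (SD), a difference of -0.12. Man2b1, an α-mannosidase, averaged 264 ± 38.9 in creatine-fed mice against 264 ± 28.4 in untreated mice (SD), a difference of -0.0066. Gla, α-galactosidase A, was dim at 58.2 ± 11.5 in creatine-fed mice against 55.9 ± 7.03 in untreated mice (SD), a difference of 0.036. Its other probe sets, 1449006_at and the very dim 1459738_x_at, differed by -0.19 and -0.11.

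Tpp1 and Ppt1, a peptidase and a thioesterase whose loss causes early forms of neuronal ceroid lipofuscinosis, had nearly equal means. Tpp1 averaged 1079.7 ± 73.8 in creatine-fed mice against 1083 ± 36.8 in untreated mice (SD), a log2 difference of -0.0059. Ppt1 averaged 698 ± 87.6 in creatine-fed mice against 691 ± 24.8 in untreated mice (SD), a difference of 0.0053, and its creatine-fed mice spread more widely, 3 of them above and 3 below every untreated mouse. Cln3, a membrane protein of the same disease group, averaged 77.5 ± 3.27 in creatine-fed mice against 85.6 ± 13.3 in untreated mice (SD), a difference of -0.11.

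Proteins of the lysosomal membrane had small or imprecise differences. Lamp1, an abundant glycoprotein of its membrane, averaged 1979 ± 90.9 in creatine-fed mice against 2056 ± 137 in untreated mice (SD), a log2 difference of -0.053. Lamp2, which autophagosomes need to mature, averaged 501 ± 124 in creatine-fed mice against 434 ± 86.2 in untreated mice (SD) at 1434503_s_at, a difference of 0.18 with an SE of 0.18. Its other 3 probe sets differed by 0.0036, -0.045 and -0.11. Scarb2, which carries glucocerebrosidase to the lysosome, averaged 1294 ± 80.7 in creatine-fed mice against 1231 ± 85.7 in untreated mice (SD), a difference of 0.072.

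Subunits of the proton pump had small positive or near-zero differences, with 2 of 4 higher and a median of 0.045, and 4 of 4 higher after quantile normalization or centring. Over all named genes 41.5% were higher as deposited, 46.6% after quantile normalization and 57.5% after centring. Of 18 other pump genes, 5 were higher as deposited, 6 after quantile normalization and 7 after centring. Atp6v0d1, which joins the membrane sector to the cytosolic sector, had a lowest, median and highest intensity of 2019, 2104 and 2272 in creatine-fed mice and of 1922, 1971 and 2149 in untreated mice at 1415671_at. Only 1 creatine-fed mouse lay above every untreated mouse, though all 6 exceeded the untreated mean. The log2 difference was 0.091 ± 0.055 (SE, adjusted p = 0.552), and the exact permutation p was 0.0163. Atp6v1h, a regulatory subunit of the cytosolic sector, had 764, 820.5 and 895 in creatine-fed mice and 683, 758 and 897 in untreated mice at 1415826_at. Here no creatine-fed mouse exceeded the untreated range, and the log2 difference was 0.11 ± 0.071 (SE, adjusted p = 0.593).

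The subunits of the ring that splits ATP had nearly equal means at their brightest probe sets. Atp6v1a, the catalytic subunit, had 2324, 2847 and 3375 in creatine-fed mice and 2562, 2821 and 3231 in untreated mice at 1422508_at. The creatine-fed mice spread beyond the untreated range at both ends, and the log2 difference was -0.0019 ± 0.095 (SE, adjusted p = 0.997). Its second probe set, 1450634_at, differed by 0.12. Atp6v1b2, its partner in the catalytic ring, had 2745, 3039 and 3379 in creatine-fed mice and 2942, 3038 and 3311 in untreated mice at 1415814_at. The medians were nearly equal, with a log2 difference of -0.020 ± 0.066 (SE, adjusted p = 0.941). Its second probe set, 1419883_s_at, averaged 1196 ± 33.9 in creatine-fed mice against 1359 ± 84.9 in untreated mice (SD), a difference of -0.18 with an adjusted p of 0.260, with 5 of 6 creatine-fed mice below every untreated mouse.

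**Figure D3:**
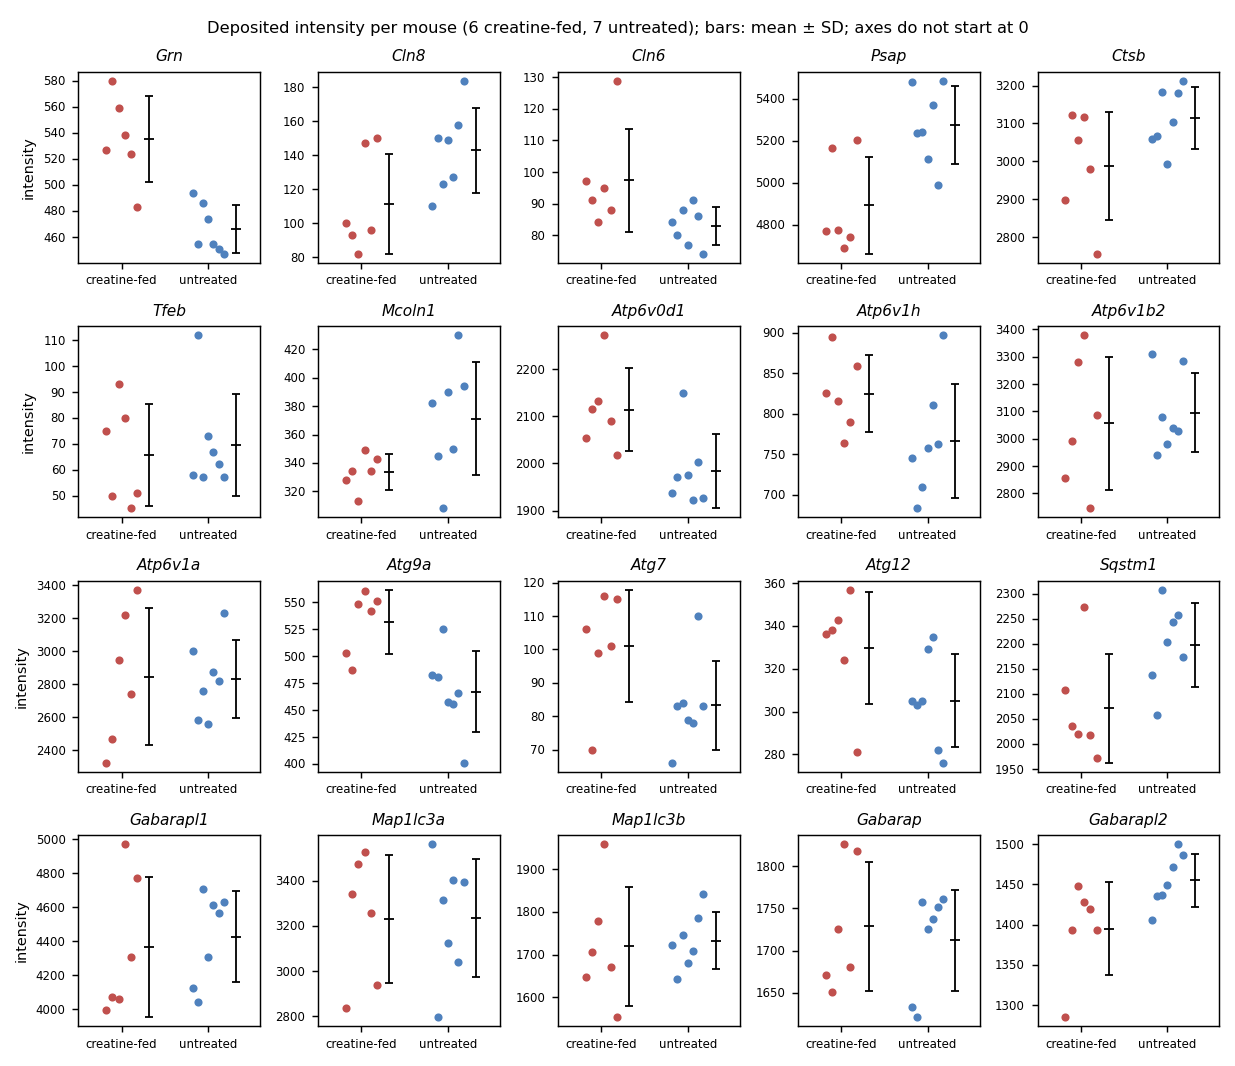
Deposited intensity (y axis) of every mouse for 20 genes at the brightest probe set, creatine-fed mice left and untreated mice right, with the mean and SD as bars. For Grn, 5 of 6 creatine-fed mice lie above all untreated mice, while for Map1lc3a no creatine-fed mouse lies outside the untreated range.

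Autophagy genes were likewise centred near 0. Of 17, 10 had a higher mean and 7 a lower mean in creatine-fed mice, where 41.5% of all named genes had a higher mean. The median log2 difference was 0.0026. After centring on array medians 14 of 17, or 82.4%, were higher and the median was 0.054, where 57.5% of all named genes were higher. At an unadjusted p under 0.05 there was 1 of 17, or 5.88%, which was Atg9a, beside 11.2% of all named genes.

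The kinases and lipid kinase that start an autophagosome had small differences at their brightest probe sets. Ulk1 and Ulk2, the starting kinases, averaged 417 ± 50.3 and 637 ± 58.1 in creatine-fed mice, against 437 ± 23.9 and 608 ± 22.6 in untreated mice (SD), with log2 differences of -0.071 and 0.063. The dimmer probe set of Ulk1 differed by 0.079, and the other probe sets of Ulk2 by 0.039, -0.0096 and -0.21. The last of these, 1439591_at, was dim, averaging 19.7 in creatine-fed mice against 25.9 in untreated mice. Becn1, the scaffold of the lipid kinase complex, averaged 946 ± 41.9 in creatine-fed mice against 944 ± 111 in untreated mice (SD), a difference of 0.012. Of its 5 probe sets 3 were lower, the brightest of these, 1460320_at, by -0.16. Pik3c3, the lipid kinase itself, averaged 208 ± 15.6 in creatine-fed mice against 208 ± 16.2 in untreated mice (SD), a difference of 0.0026. Wipi2, which reads the lipid made by that kinase, averaged 368 ± 29.5 in creatine-fed mice against 351 ± 18.4 in untreated mice (SD), a difference of 0.063.

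Atg9a, the membrane protein whose vesicles seed the autophagosome, had the smallest unadjusted p of the autophagy genes. Its lowest, median and highest intensities at its 1 probe set, 1435784_at, were 487, 545.5 and 561 in creatine-fed mice and 401, 466 and 525 in untreated mice. Of the 6 creatine-fed mice, 4 lay above every untreated mouse and all 6 above the untreated mean. The log2 difference was 0.18 ± 0.068 (SE, adjusted p = 0.314), and the exact permutation p was 0.00699.

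The conjugation enzymes attach ubiquitin-like proteins to each other and to membrane lipid. Atg7, the activating enzyme, had 70.0, 103.5 and 116 in creatine-fed mice and 66, 83 and 110.0 in untreated mice at 1428612_at. A single creatine-fed mouse, replicate 2, was low, and the log2 difference was 0.24 ± 0.11 (SE, adjusted p = 0.429). The other 3 probe sets of Atg7 had differences of -0.16, -0.19 and -0.34, opposite in sign. These were dimmer, averaging 55.0, 22.3 and 5.17 in creatine-fed mice and 62.4, 28.1 and 10.7 in untreated mice. Atg12, the protein joined to Atg5, had 281, 337 and 357 in creatine-fed mice and 276, 305 and 335 in untreated mice at 1451747_a_at. Although 4 creatine-fed mice exceeded the untreated range, the log2 difference was 0.11 ± 0.071 (SE, adjusted p = 0.587). The other probe sets of Atg12 differed by -0.19 and -0.099. The latter, 1439457_x_at, was very dim, averaging 8.5 in creatine-fed mice against 10.3 in untreated mice. Atg3, the enzyme that hands Atg8 proteins to lipid, averaged 876 ± 40.1 in creatine-fed mice against 875 ± 58.1 in untreated mice (SD), a difference of 0.0016. Atg5, which Atg12 is joined to, averaged 175.5 ± 15.5 in creatine-fed mice against 169.9 ± 9.10 in untreated mice (SD), a difference of 0.041. Atg16l1, which brings that pair to the membrane, averaged 412 ± 36.4 in creatine-fed mice against 416 ± 36.1 in untreated mice (SD), a difference of -0.014.

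The Atg8 family, small proteins that coat the growing membrane and bind cargo receptors, had differences between -0.061 and 0.013 at the brightest probe sets of its 5 members. Map1lc3a had a lowest, median and highest intensity of 2838, 3299 and 3528 in creatine-fed mice and of 2796, 3315 and 3561 in untreated mice at 1447883_x_at. Map1lc3b had 1553, 1689 and 1959 in creatine-fed mice and 1642, 1723 and 1841 in untreated mice at 1415929_at. Gabarap had 1651, 1703 and 1826 in creatine-fed mice and 1621, 1737 and 1761 in untreated mice at 1416937_at. The log2 differences of these 3 were -0.0028, -0.014 and 0.013. No creatine-fed mouse lay outside the untreated range for Map1lc3a, 1 lay above and 1 below it for Map1lc3b, and 2 lay above it for Gabarap. At a second bright probe set of Map1lc3b, 1415930_a_at, the means were 1439 ± 168 in creatine-fed mice against 1598 ± 88.5 in untreated mice (SD), a difference of -0.16 with an adjusted p of 0.459, and 4 of 6 creatine-fed mice lay below every untreated mouse. At 1415928_a_at, also a probe set of Map1lc3b, the difference was 0.011. Gabarapl1 had 3999, 4193 and 4972 in creatine-fed mice and 4046, 4565 and 4710.0 in untreated mice at 1416419_s_at. Of its creatine-fed mice, 2 lay above and 1 below every untreated mouse, with a log2 difference of -0.023. Gabarapl2 had 1285, 1407 and 1448 in creatine-fed mice and 1406, 1449 and 1500.0 in untreated mice at 1423187_at. The untreated mean exceeded the value of each of the 6 creatine-fed mice, with a log2 difference of -0.061, an adjusted p of 0.698 and an exact permutation p of 0.0192.

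Sqstm1, the receptor that links ubiquitin-tagged cargo to Atg8 proteins and is itself degraded by autophagy, had 1972, 2027 and 2274 in creatine-fed mice and 2057, 2204 and 2308 in untreated mice at 1450957_a_at. Of the creatine-fed mice, 4 lay below every untreated mouse, and replicate 4 was high. The log2 difference was -0.085 ± 0.057 (SE, adjusted p = 0.593), with an exact permutation p of 0.0396.

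Probe sets of one gene often went different ways. Of the 34 genes with more than 1 probe set, 15 had all of them on one side of 0 and 19 had some on each side. This count includes very dim probe sets. Ctsl fell on both sides only through 1457724_at (1.83 in creatine-fed against 2.29 in untreated mice). Atp6v1b2 did so only through 1446465_at (15.3 in creatine-fed against 7.0 in untreated mice). Of all 106 probe sets, none passed, and 11, or 10.4%, had an unadjusted p under 0.05, beside 11.9% of all 45037. Of the 11, 5 were higher and 6 lower in creatine-fed mice, where the shares over all probe sets were 4.17% and 7.7%. Besides those given above, they were dim probe sets of Becn1 (1430358_at, 30.0 in creatine-fed against 42.1 in untreated mice), Atg7 (1446633_at, 5.17 in creatine-fed against 10.7 in untreated mice) and Map1lc3b (1428024_at, 15.3 in creatine-fed against 8.14 in untreated mice).

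**Figure D4:**
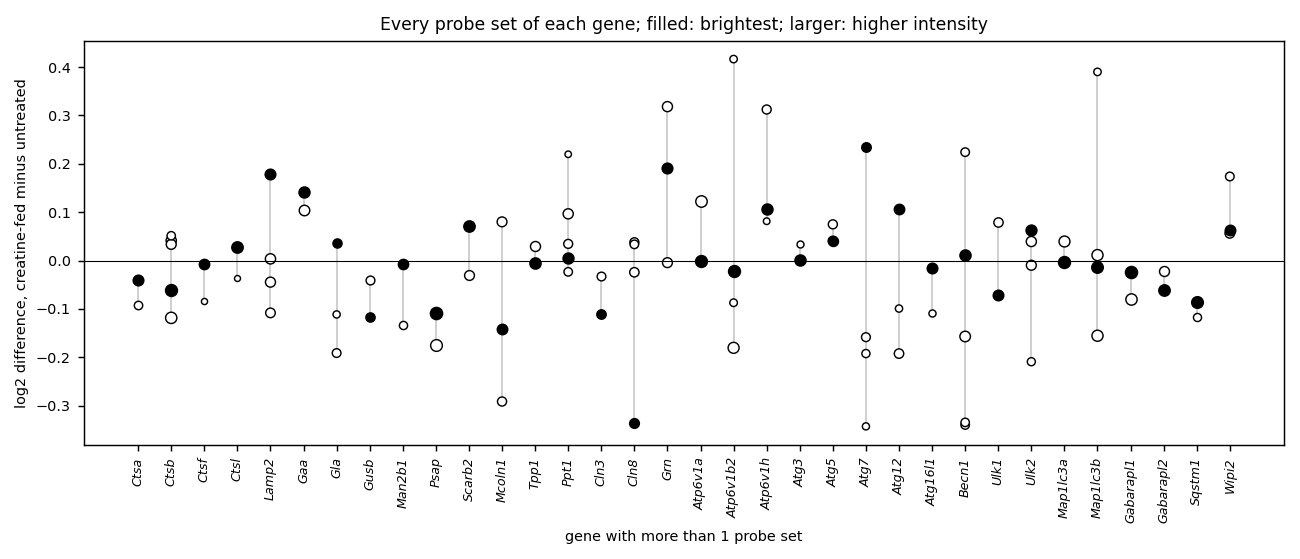
Log2 difference between creatine-fed and untreated mice (y axis) at every probe set of the 34 genes with more than 1, filled for the brightest and larger for higher intensity. In 19 genes the points lie on both sides of 0, as in Cln8, Atg7 and Becn1, while both points of Psap and of Gaa lie on one side.

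Single mice differed from each other within each group. The coefficient of variation among untreated mice ran from 2.25% for Gabarapl2 to 28.4% for Tfeb, with a median of 7.05%. Creatine-fed replicate 4 had the highest value of all 13 mice in 12 of the 44 genes, and its array had the lowest median, 37. Untreated replicate 7 had the lowest value in 10 of the 44. Averaged over members, creatine-fed replicate 4 stood 0.094, 0.13 and 0.11 log2 units above the untreated mean for lysosome, pump and autophagy genes. After centring on array medians it stood 0.24, 0.27 and 0.26 above. For autophagy genes after centring, the other creatine-fed mice lay between -0.022 and 0.13 and untreated mice between -0.10 and 0.087. Without creatine-fed replicate 4 the median differences as deposited were -0.028, 0.015 and -0.012.

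The sign of small differences depended on how arrays were scaled. In 30 of the 44 genes it was the same as deposited, after quantile normalization and after centring on array medians, and in 14 it was not, among them Ctsa, Ctsd, Atp6v1a, Atp6v1b2, Becn1, Map1lc3a, Map1lc3b and Gabarapl1. At their brightest probe sets Grn, Cln6 and Atg9a stayed higher and Cln8, Mcoln1, Psap and Sqstm1 stayed lower under all 3 scalings. For some genes the value depended on the probe set. At the brightest probe set without a suffix _x_at or _s_at, Grn differed by -0.0043, Mcoln1 by 0.080 and Cln8 by -0.024.

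**Figure D5:**
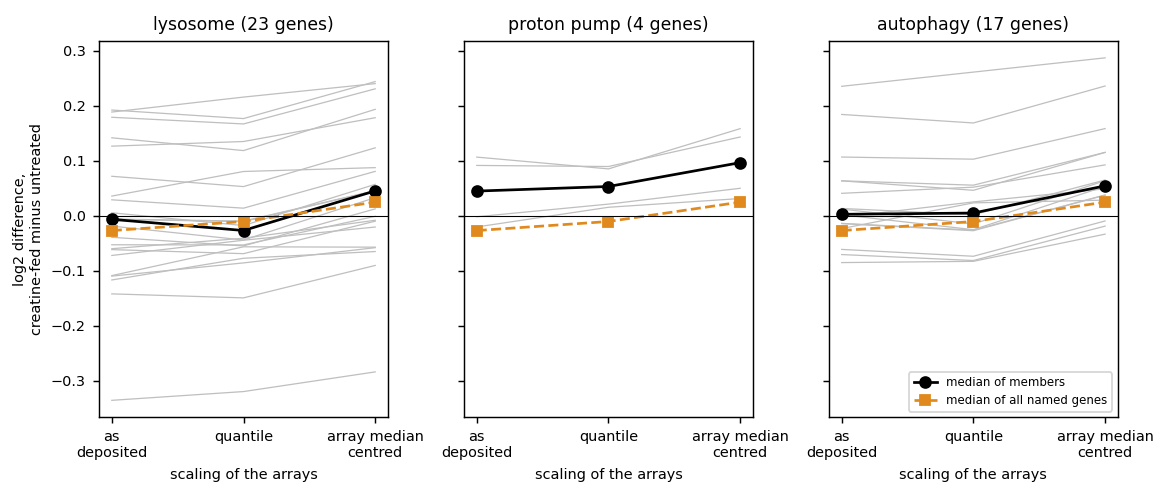
Log2 difference between creatine-fed and untreated mice (y axis) under 3 scalings of the arrays (x axis), with a grey line for each gene, black points for the median of members and orange squares for the median of all named genes. Centring moves members and all named genes upward together, the lysosome median to 0.045 and that of all named genes to 0.025.

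Wider lists of the same pathways, from textbook knowledge, held no gene past the adjusted threshold. Over all named genes 41.5% were higher in mean as deposited and 57.5% after centring. An unadjusted p under 0.05 was found for 6.9% of the other enzymes and 8.33% of the membrane, transport and sorting genes. Over all named genes that share was 11.2%. Of 29 other lysosomal enzymes measured, 10 were higher in mean and 19 lower in creatine-fed mice, with a median log2 difference of -0.024, but 20 higher and 9 lower after centring on array medians. The lowest p were those of Lgmn, a lysosomal protease (379.5 ± 44.96 in creatine-fed mice against 465 ± 48.2 in untreated mice, SD, log2 difference -0.28, adjusted p = 0.242), Naglu (-0.21) and Arsb (0.19), and of these Lgmn and Naglu had an unadjusted p under 0.05. Of 24 other membrane, transport and sorting genes, 13 were higher and 11 lower, or 15 and 9 after centring, led by Igf2r, the receptor that sorts enzymes to lysosomes (224 ± 31.8 in creatine-fed mice against 185 ± 12.0 in untreated mice, SD, log2 difference 0.25, adjusted p = 0.287), the very dim Mcoln2 (-0.28) and Gnptg (0.14). Of 18 other pump genes, 5 were higher and 13 lower, with a median of -0.064, or 7 and 11 with a median of -0.013 after centring, and none had an unadjusted p under 0.05. The lowest p there belonged to Atp6v1c1 (-0.14), Atp6v0e (-0.14) and the dim Atp6v0a4 (-0.28).

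Of 39 other autophagy genes, 16, or 41.0%, were higher in mean and 23 lower, and after centring 23, or 59.0%, were higher and 16 lower. Over all named genes 41.5% were higher as deposited and 57.5% after centring. Wdr45b, a relative of Wipi2, averaged 693 ± 83.6 in creatine-fed mice and 569 ± 16.7 in untreated mice (SD), a log2 difference of 0.27 with an adjusted p of 0.207. It was the 1 gene of the 39 whose groups did not overlap, where 0.649% of all named genes had such groups. Tecpr1, which works at the fusion of autophagosomes with lysosomes, averaged 265 ± 36.8 in creatine-fed mice against 332 ± 49.2 in untreated mice (SD), a difference of -0.31. Wdfy3, an adaptor for aggregated protein, averaged 1045 ± 103 in creatine-fed mice against 1199 ± 82.5 in untreated mice (SD), a difference of -0.20. With Atg16l2 (-0.19), named after its value was seen, these were the 4 with an unadjusted p under 0.05. They are 10.3% of the list, where 11.2% of all named genes had such a p.

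Markers of cell types that carry many lysosomes or much myelin were read beside these genes. Over all named genes 41.5% had a higher mean in creatine-fed mice. At an unadjusted p under 0.05, 3.58% of all named genes were higher and 7.62% lower. Of 12 microglia markers 9 were higher in mean in creatine-fed mice, with a median log2 difference of 0.080, none had an unadjusted p under 0.05, and their summed intensity was 2296 to 2547 in creatine-fed mice and 2088 to 2592 in untreated mice. With their mean as a covariate in limma, Grn differed by 0.19 (adjusted p = 0.349), Atg9a by 0.14 (adjusted p = 0.526), Cln6 by 0.14 (adjusted p = 0.636) and Cln8 by -0.33 (adjusted p = 0.511). Of 9 oligodendrocyte markers 8 were lower, 4 at an unadjusted p under 0.05, with sums of 18170 to 20462 in creatine-fed mice and 19846 to 24577 in untreated mice. With the oligodendrocyte mean as a covariate in limma, the log2 differences were 0.11 for Grn (adjusted p = 0.782), 0.078 for Atg9a (adjusted p = 0.877), 0.20 for Cln6 (adjusted p = 0.734) and 0.012 for Cln8 (adjusted p = 0.993). Most microglia markers were themselves higher and most oligodendrocyte markers lower in creatine-fed mice. These fits therefore cannot tell the part of either cell type from that of feeding. Of 9 astrocyte markers 8 were also lower, 3 at an unadjusted p under 0.05, with sums of 12740 to 14221 in creatine-fed mice and 13568 to 16392 in untreated mice, and their part in these results was not tested. Of 5 neutrophil markers 5 were lower, 1 at an unadjusted p under 0.05, with sums of 101 to 155 in creatine-fed mice and 79 to 648 in untreated mice, and their part was not tested either. No marker of these lists was at 0 on all arrays.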

How the data were processed

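Brain hemisphere RNA of 6 creatine-fed and 7 untreated mice was labelled as biotinylated cRNA from 3 µg of total RNA and hybridised to Affymetrix arrays, per the labels' protocols. The deposited value table holds 1 intensity per probe set and array, in whole numbers on a linear scale that include 0. RMA is named per the submitters' processing notes, but RMA gives log2 values with equal distributions, which these are not, so the scaling tool is not given in the sources used here.

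Of 45101 probe sets, 64 controls were left out. Of the 45037 tested, 34945 had 1 symbol in the platform annotation, 932 several and 9160 none listed here. Values were taken as log2(intensity + 16), because the table holds 0, and the offset understates differences of dim probe sets. The comparison used R 4.3.3 and the functions lmFit and eBayes of limma 3.58.1, 2-sided, with Benjamini-Hochberg adjustment, after the code was tested on simulated data. Single genes were also tested by exact permutation in Python 3.11.15, and figures were drawn with matplotlib 3.10.9. The number of arrays limits the precision. No scan dates or slides were given in the labels, so no such batch was examined.

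All members are named. In depth are, in each role group, the 4 with the smallest p and the 2 brightest, with Tfeb, the 5 Atg8 proteins and members with a probe set at p under 0.01. Of each wider list the 3 genes with the smallest p are named. Members and lists were chosen with earlier results of these data known. Alternatives covered scaling, offset, dim probe sets, eBayes settings, array weights, replicate numbers, covariates, single mice and the choice of probe set. Promoter windows come from RefSeq, build GRCm38.p6, and 9 measured members had none.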

Additional observations from a re-analysis of the deposited data

Results flagged for a closer look

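In 10 of the 88 groups of mice examined for the 44 genes, 1 mouse lay further from the nearest of its group than Dixon's 95% limit allows, where chance gives about 1 in 20 groups. Among lysosome genes, Hexa was low in creatine-fed replicate 6, at 321 with the nearest mouse at 401, and Cln6 was high in the same mouse, at 129 with the nearest at 97. Scarb2 was high in untreated replicate 5, at 1408 against 1258 for the nearest mouse. Ppt1 was high in untreated replicate 7, at 743 with the nearest at 698. Tfeb was high in untreated replicate 2, at 112 with the nearest at 73. Of the pump genes, Atp6v0d1 was high in untreated replicate 3, at 2149 with the nearest at 2003. Among autophagy genes, Atg7 was low in creatine-fed replicate 2, at 70.0 with the nearest at 99, and high in untreated replicate 6, at 110.0 with the nearest at 84. Becn1 was low in creatine-fed replicate 6, at 862 with the nearest at 954, and Gabarapl2 was low in creatine-fed replicate 1, at 1285 with the nearest at 1393.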

How the results depend on the processing

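No member passed the adjusted threshold in any of 27 alternatives, and the smallest adjusted p of a member was 0.0977, for Grn among the brighter 22519 probe sets. The 4 calls over all probe sets became 2 with quantile normalization, 0 with an offset of 1, 36 with an offset of 50, 137 among the brighter probe sets, 161 with a trended and robust eBayes, 13 with array weights, 2 with the microglia covariate, 0 with the oligodendrocyte covariate, 2 when creatine-fed replicate 2 and untreated replicate 3 were both left out and 1 with probe sets averaged per gene. Leaving out single mice gave 0 to 6 calls, with 0 without creatine-fed replicate 3 or 5 or untreated replicate 2, 3, 4, 5 or 6, and 2 without untreated replicate 7. Members at an unadjusted p under 0.05 numbered 7 with the trended and robust eBayes, 2 with the 3′ to 5′ covariate, 1 with the microglia covariate, 2 without probe sets of the suffixes _x_at and _s_at and 8 by exact permutation. Leaving out single mice gave 2 to 6, with 2 without creatine-fed replicate 1 or untreated replicate 2 or 4. The median log2 difference of lysosome genes was 0.045 after centring, -0.033 without the 2 arrays, -0.045 with probe sets averaged per gene and -0.028 to 0.0095 without single mice. That of autophagy genes was 0.054 after centring, 0.042 with the oligodendrocyte covariate and -0.012 to 0.023 without single mice. That of pump genes stayed positive, at 0.015 to 0.077 without single mice. Centring moved the log2 difference of every gene by the same amount, such as Ctsa from -0.039 to 0.012 and Psap from -0.11 to -0.057. The cause of the other shifts was not tested. Replicate numbers did not pair the mice, with correlations of same-numbered mice between -0.055 and 0.15, and 1 of 6 creatine-fed mice, replicate 2, matched its own number best. With the replicate block there were 0 calls over all probe sets and 2 members at an unadjusted p under 0.05.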
